A study of Mus musculus with 8 samples.

Results

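The IL-36 system of the skin was examined in 5 genes: the agonist cytokine genes Il1f6, Il1f8 and Il1f9, the antagonist gene Il1f5 and the receptor gene Il1rl2. They were taken by gene symbol from a table of 34745 genes, in which all 5 were found under these older symbols, and the set was chosen with earlier results of these data known. Il1f6, Il1f8 and Il1f9 encode IL-36α, IL-36β and IL-36γ, members of the IL-1 family that are made chiefly by keratinocytes and other epithelial cells. Each binds the receptor encoded by Il1rl2, which then recruits the co-receptor encoded by Il1rap and signals through MyD88 to NF-κB. The product of Il1f5 occupies the same receptor without recruiting the co-receptor, and in humans inherited loss of that antagonist causes generalised pustular psoriasis.

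RNA was sequenced from 8 skin samples of mice killed at 16 weeks of age, in 2 groups of 4. NcstnΔKC mice were Ncstn flx/flx; Krt14 CreER+/- animals that were given tamoxifen by gavage, 20 mg per kg per day for 5 days starting at 8 weeks and then every 10 days. Normal mice were given corn oil, and are wildtype by their genotype label but Ncstn flx/flx; Krt14 CreER+/- by the protocol text, which speaks of excised skin lesions for both groups. Krt14-driven CreER acts in basal keratinocytes and the cells that descend from them, Ncstn encodes the nicastrin subunit of γ-secretase, and an effect of tamoxifen itself cannot be told apart from one of the deletion.

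Total counts ran from 11881506 to 12893174 in NcstnΔKC libraries and from 5835422 to 8663753 in normal libraries. Ncstn was at 50.2 to 66.8 CPM (counts scaled to library size) in NcstnΔKC libraries and at 58.4 to 61.9 CPM in normal libraries, so counts over the whole gene did not show the deletion. All mice are labelled male, yet replicates 3 and 4 of both groups held 22304 to 37109 counts of Xist, the RNA of the inactive X chromosome, and 0 to 3 counts of 4 Y-linked genes. In replicates 1 and 2 of both groups Xist was at 4 to 9 counts, and the Y-linked genes together reached 886 to 4453. So 4 of the 8 libraries went against the label, evenly over the groups. Mitochondrial genes took 0.680% to 0.939% of counts in NcstnΔKC libraries and 3.42% to 5.43% in normal libraries. With mitochondrial and rRNA-linked genes left out, log2 fold changes of NcstnΔKC over normal were 4.84 for Il1f6, 3.35 for Il1f8 and 2.57 for Il1f9. They were 1.36 for Il1f5 and 0.57 for Il1rl2, and all 5 round to the values of the fit used below. Any other part of the mitochondrial difference in the IL-36 values was not tested. The skin identity of the samples was seen in the basal keratinocyte markers, which summed to 13262 to 17235 CPM in NcstnΔKC libraries and 8142 to 11534 CPM in normal libraries. The labels do not say that each library came from a separate animal. Xist and Y-linked counts set replicates 1 and 2 apart from replicates 3 and 4 in both groups. They do not tell replicate 1 from 2, or 3 from 4. The p-values measure the spread between these libraries, which may be technical in part.

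All 5 IL-36 genes were higher in NcstnΔKC skin than in normal skin, and for each of them the lowest NcstnΔKC library lay above the highest normal library. The agonists changed most in size, with fitted folds of 28.6 for Il1f6, 10.2 for Il1f8 and 5.93 for Il1f9, against 2.57 for the antagonist Il1f5 and 1.48 for the receptor Il1rl2. The 5 calls were made with edgeR's quasi-likelihood test at an adjusted p under 0.05, at which 21.4% of the 15684 genes tested were called higher and 22.7% lower (groups did not overlap for 41.6% of genes, 20.9% with NcstnΔKC higher). Calls were therefore common in this comparison. Skin was sampled whole, so a change in the number of cells of a type and a change in RNA per cell cannot be told apart.

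**Figure D1:**
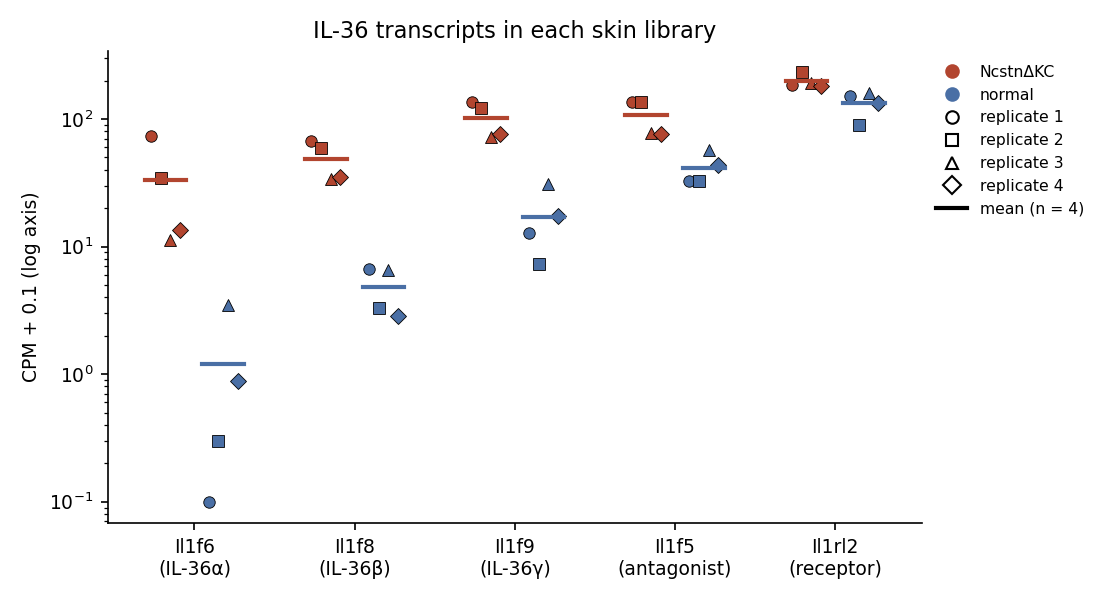
Levels of the 5 IL-36 genes in each library, as CPM + 0.1 on a log axis, with NcstnΔKC libraries left of normal libraries, a symbol per replicate and a bar at the mean of 4. The NcstnΔKC symbols lie above the normal symbols in every gene, and replicates 1 and 2 lie above replicates 3 and 4 for the 4 ligands of the NcstnΔKC group.

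Il1f6 (IL-36α; ENSMUSG00000026984, mm10 chromosome 2, 24215418 to 24225702, plus strand) had 874, 506, 162 and 198 counts in NcstnΔKC replicates 1 to 4, against 0, 1, 24 and 6 counts in normal replicates 1 to 4. Scaled to library size these were 73.3, 34.6, 11.2 and 13.3 CPM in NcstnΔKC libraries, against 0, 0.202, 3.39 and 0.782 CPM in normal libraries. The gene was thus close to undetected in normal replicates 1 and 2, and in the other normal libraries it lay below every NcstnΔKC library. The log2 fold change was 4.84 ± 0.98 (SE, n = 4 each, edgeR adjusted p = 0.00462), with a 95% interval from 2.61 to 7.06. Its size rested on single libraries, since leaving out NcstnΔKC replicate 1 gave 4.09 and leaving out normal replicate 3 gave 6.54, and the call held in both.

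Il1f8 (IL-36β; ENSMUSG00000026985, chromosome 2, 24153161 to 24160519, plus strand) had 67.5, 58.9, 33.8 and 35.1 CPM in NcstnΔKC replicates 1 to 4, against 6.53, 3.23, 6.49 and 2.74 CPM in normal replicates 1 to 4. These values rest on 489 to 862 counts per NcstnΔKC library and 16 to 46 counts per normal library. It averaged 48.8 ± 17.003 CPM in NcstnΔKC skin and 4.75 ± 2.05 CPM in normal skin (SD, n = 4 each). Its log2 fold change of 3.35 ± 0.37 (SE, edgeR adjusted p = 0.000307) had the lowest p of the 5 genes, and no normal library came near the lowest NcstnΔKC library.

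Il1f9 (IL-36γ; ENSMUSG00000044103, chromosome 2, 24186476 to 24193568, plus strand) had 136, 123, 71.8 and 75.8 CPM in NcstnΔKC replicates 1 to 4, against 12.6, 7.26, 30.9 and 17.2 CPM in normal replicates 1 to 4. Il1f9 averaged 102 ± 32.6 CPM in NcstnΔKC skin and 16.99 ± 10.1 CPM in normal skin (SD, n = 4 each). Normal replicate 3 was its highest normal library, as it was for Il1f6, and it still lay below the lowest NcstnΔKC library. The log2 fold change was 2.57 ± 0.42 (SE, edgeR adjusted p = 0.00179).

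Il1f5, the receptor antagonist (ENSMUSG00000026983, chromosome 2, 24276954 to 24283426, plus strand), had 136, 136, 78.2 and 76.4 CPM in NcstnΔKC replicates 1 to 4, against 32.5, 32.9, 56.6 and 43.4 CPM in normal replicates 1 to 4. Means were 107 ± 33.8 CPM in NcstnΔKC skin and 41.3 ± 11.4 CPM in normal skin (SD, n = 4 each). The NcstnΔKC libraries again fell into a higher and a lower pair, and all lay above normal replicate 3, the highest normal library. Its log2 fold change was 1.36 ± 0.27 (SE, edgeR adjusted p = 0.00387), with a 95% interval from 0.76 to 1.97 that lies wholly below the intervals of Il1f6 and Il1f8, although the difference between genes was not tested.

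Il1rl2, the receptor (ENSMUSG00000070942, chromosome 1, 40324610 to 40367562, plus strand), had 185, 233, 193 and 182 CPM in NcstnΔKC replicates 1 to 4, against 151, 89.7, 160 and 133 CPM in normal replicates 1 to 4. It differed least between the groups, with 198 ± 23.4 CPM in NcstnΔKC skin and 133 ± 31.4 CPM in normal skin (SD, n = 4 each) and a log2 fold change of 0.57 ± 0.19 (SE, edgeR adjusted p = 0.0338). That call was not firm. It ended without NcstnΔKC replicate 2 (0.49), without NcstnΔKC replicate 3 (0.59) or without normal replicate 4 (0.62), and with the libraries scaled by basal keratinocyte genes the value turned to -0.086 (adjusted p = 0.701). With that last scaling the median of all genes tested was itself -0.70, against -0.02 with the scaling used throughout. Il1f5 was at 0.71 with that scaling and no longer passed (adjusted p = 0.0737), whereas Il1f6 (4.26), Il1f8 (2.74) and Il1f9 (1.94) did.

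The libraries that carry Xist and those that do not gave the same direction for all 5 genes. In replicates 3 and 4, which hold Xist, the log2 fold changes were 2.61 ± 0.51 for Il1f6, 2.95 ± 0.34 for Il1f8, 1.66 ± 0.26 for Il1f9, 0.67 ± 0.15 for Il1f5 and 0.40 ± 0.13 for Il1rl2 (SE, n = 2 each, edgeR adjusted p from 0.00122 to 0.0401 in a model across all genes). In replicates 1 and 2, without Xist, they were 9.07 ± 0.91, 3.68 ± 0.43, 3.70 ± 0.37, 2.06 ± 0.24 and 0.79 ± 0.34 in the same order of genes, and none passed (adjusted p from 0.0572 to 0.22), in a fit that called 4 of all genes. The value of Il1f6 there rests on 1 normal count against 1380 NcstnΔKC counts, a ratio of 600.1 after scaling with an exact 95% counting interval from 108 to 23720, so its size is poorly known. The difference of the 2 effects had an unadjusted p of 0.000676 for Il1f5, 0.00209 for Il1f6 and 0.00307 for Il1f9 by an interaction term in the edgeR model of all 8 libraries. That of Il1f6 rests on the same single normal count. After adjustment over all genes it was called for none of the 5 (adjusted p from 0.405 to 0.866), and for 0 of 15684 genes, of which 917 had an unadjusted p under 0.05. Means of Il1f9 were 73.8 CPM in NcstnΔKC and 24.1 CPM in normal libraries with Xist, and 129 CPM in NcstnΔKC and 9.93 CPM in normal libraries without it. The agonists were thus higher in the NcstnΔKC libraries without Xist, and Il1f9 was lower in the normal libraries without Xist.

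**Figure D2:**
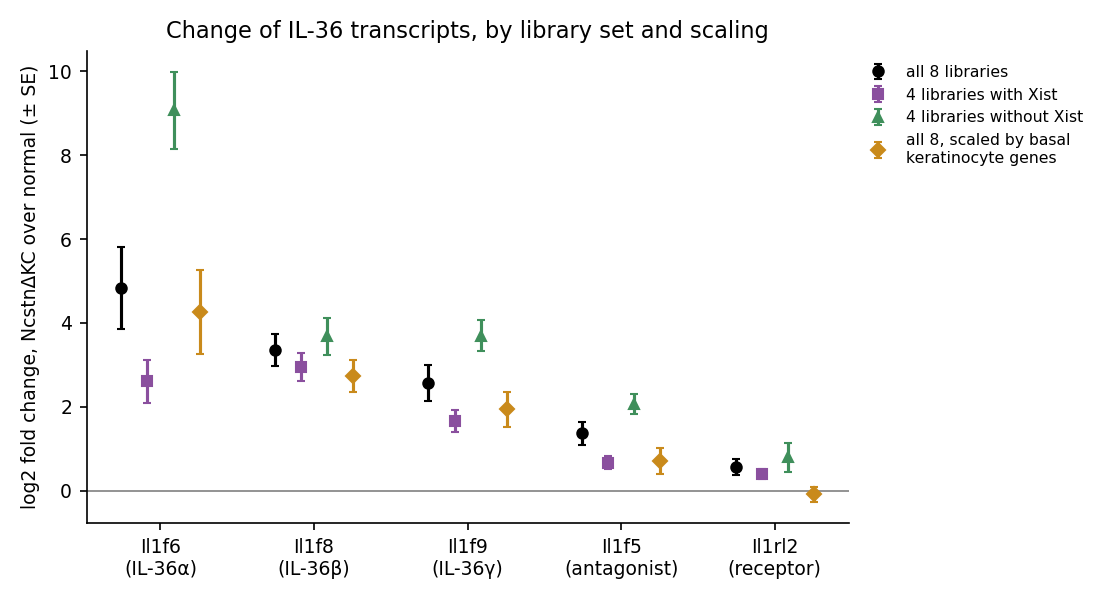
Log2 fold change of each IL-36 gene, NcstnΔKC over normal, with its standard error, in all 8 libraries, in the 4 with Xist, in the 4 without Xist, and in all 8 scaled by basal keratinocyte genes. The agonists lie above 1 in all 4 settings, the receptor crosses 0 with the last scaling, and the value of Il1f6 without Xist rests on 1 normal count.

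Promoter windows are shown for a view of the sequence before the starts of these genes. RefSeq (GRCm38.p6, the mm10 assembly) gave windows of 250 bases before to 50 bases from the annotated start for Il1f8, Il1f9, Il1f5 and Il1rl2, and Il1f6 is named only. Capitals mark matches, on either strand, to the letters TGANTCA for AP-1, GGGA then any 4 bases then CC for a κB site, TTCNNNGAA for STAT factors and TTGCNNAA for C/EBP.
Il1f8, chr2:24152922-24153221, plus strand: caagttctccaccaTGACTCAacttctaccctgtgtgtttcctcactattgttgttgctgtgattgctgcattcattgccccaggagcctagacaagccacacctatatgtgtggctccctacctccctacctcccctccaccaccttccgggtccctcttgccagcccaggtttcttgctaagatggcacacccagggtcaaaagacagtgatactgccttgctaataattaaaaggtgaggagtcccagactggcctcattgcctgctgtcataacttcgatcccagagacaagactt
Il1f9, chr2:24186226-24186525, plus strand: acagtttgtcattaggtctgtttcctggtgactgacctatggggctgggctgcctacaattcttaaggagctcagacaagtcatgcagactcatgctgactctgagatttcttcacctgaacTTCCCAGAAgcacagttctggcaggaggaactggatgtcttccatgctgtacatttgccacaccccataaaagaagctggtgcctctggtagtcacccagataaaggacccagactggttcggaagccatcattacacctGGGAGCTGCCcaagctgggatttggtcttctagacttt
Il1f5, chr2:24276704-24277003, plus strand: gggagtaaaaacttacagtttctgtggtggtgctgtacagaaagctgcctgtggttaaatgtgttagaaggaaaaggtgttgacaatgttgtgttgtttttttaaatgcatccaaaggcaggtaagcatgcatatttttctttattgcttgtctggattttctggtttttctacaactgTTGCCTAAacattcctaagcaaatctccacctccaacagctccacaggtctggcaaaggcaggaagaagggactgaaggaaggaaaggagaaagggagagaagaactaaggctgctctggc
Il1rl2, chr1:40324339-40324638, plus strand: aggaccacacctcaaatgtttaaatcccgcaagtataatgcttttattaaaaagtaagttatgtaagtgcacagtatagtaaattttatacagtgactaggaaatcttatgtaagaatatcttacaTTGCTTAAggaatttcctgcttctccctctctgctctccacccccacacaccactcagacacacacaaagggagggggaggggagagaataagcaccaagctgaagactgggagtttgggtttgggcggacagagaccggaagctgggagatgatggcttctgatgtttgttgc
The Il1f8 window held an AP-1 match that began 236 bases before the start, a motif found in 7.81% of 32817 promoter windows of this length. The Il1f9 window held a STAT match 128 bases before the start (8.29% of windows) and a κB match that began 12 bases after it (20.7% of windows). The windows of Il1f5 and Il1rl2 each held a C/EBP match, 71 and 124 bases before their starts in that order (10.8% of windows). A second annotated start of Il1f5, not shown, held a STAT and a κB match. None of the matches in capitals overlapped another, and each is a description of letters.

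Levels of different genes were compared per length. The authors' FPKM (fragments scaled to library size and to a gene length) implied a length of 9241 bases for Il1f5, more than the 6473 bases its locus spans and the 4493 bases that its annotated exons cover together. For Il1f8 and Il1f9, with a single transcript each, the implied lengths of 1217 and 1648 bases equalled the exon lengths. FPKM therefore understates Il1f5 beside the agonists, and CPM per kilobase of joined exons is given with it. Joined exons have a limit of their own, since Il1f5 has 7 annotated transcripts, Il1rl2 has 4 and Il1f6 has 2. Their joined length may exceed that of the RNA present, which would understate these genes beside Il1f8 and Il1f9. The size of the ratios and the order of genes given below depend on these lengths.

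Per kilobase of exon, the summed agonists reached 221, 162, 84.0 and 89.8 CPM per kilobase in NcstnΔKC replicates 1 to 4, against 13.01, 7.28, 27.9 and 13.6 in normal replicates 1 to 4. The antagonist reached 30.3, 30.2, 17.4 and 17.01 CPM per kilobase in NcstnΔKC libraries, against 7.23, 7.31, 12.6 and 9.66 in normal libraries. Both were higher in every NcstnΔKC library than in any normal library, and the ratio of antagonist to summed agonists was 0.137, 0.186, 0.207 and 0.189 in NcstnΔKC libraries, against 0.556, 1.004, 0.451 and 0.712 in normal libraries. The highest NcstnΔKC ratio lay below the lowest normal ratio. With the authors' FPKM the mean ratios were 0.0894 ± 0.0142 in NcstnΔKC skin and 0.333 ± 0.117 in normal skin (SD, n = 4 each), again with groups that did not overlap. These ratios describe the 4 genes together and carry no test.

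**Figure D3:**
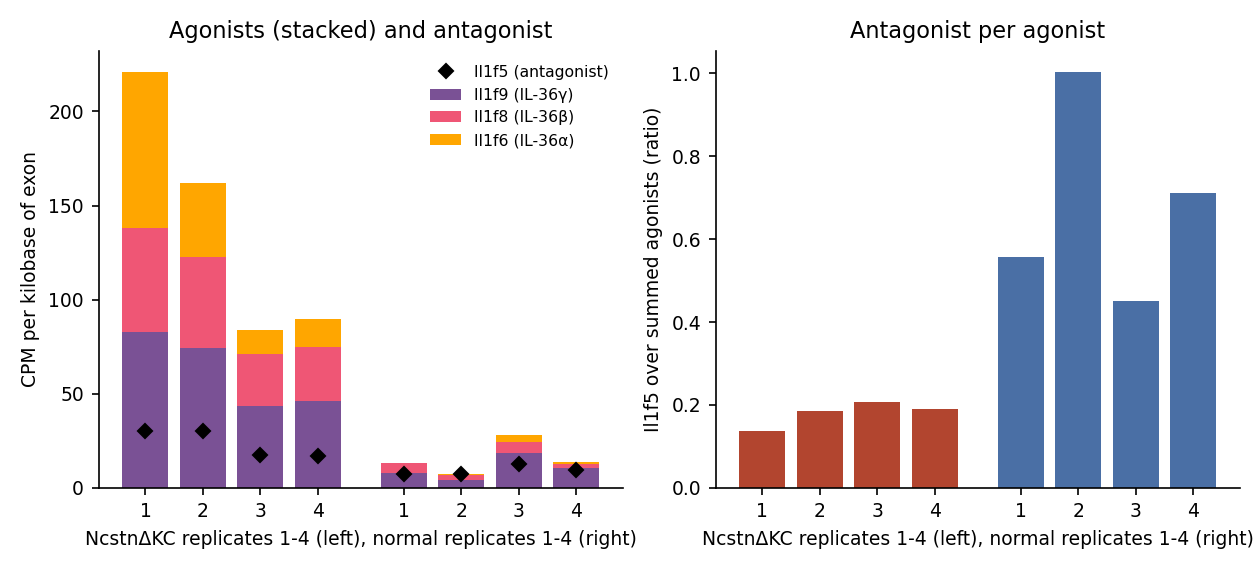
Left, CPM per kilobase of exon of the 3 agonists (stacked bars) and of the antagonist Il1f5 (diamonds) in each library; right, the ratio of Il1f5 to the summed agonists. NcstnΔKC replicates stand on the left of each panel, with ratios of 0.137 to 0.207, and normal replicates on the right, with 0.451 to 1.004.

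The makeup of the agonists also differed. Il1f6 made up 37.5%, 24.2%, 15.1% and 16.8% of the summed agonists per kilobase in NcstnΔKC replicates 1 to 4, against 0%, 3.14%, 13.7% and 6.52% in normal replicates 1 to 4. Il1f9 made up 37.4% to 51.9% in NcstnΔKC libraries and 58.8% to 76.9% in normal libraries, and was the largest agonist share in every library but NcstnΔKC replicate 1, where Il1f6 was at 37.5%. By the authors' FPKM Il1f9 was the largest in that library too, at 38.7% against 35.2% for Il1f6. Il1f8 held 25.1% to 33.1% in NcstnΔKC libraries and 16.6% to 41.2% in normal libraries, so its shares overlapped. Within NcstnΔKC skin the mean levels per kilobase ran, from high to low, from Il1f9 (61.6 ± 19.8) through Il1f8 (40.1 ± 14.0), Il1f6 (37.5 ± 32.6) and Il1rl2 (29.1 ± 3.44) to Il1f5 (23.7 ± 7.52). The ranges of neighbours in that order overlapped. Within normal skin the order ran from Il1rl2 (19.6 ± 4.61) through Il1f9 (10.3 ± 6.15), Il1f5 (9.201 ± 2.53) and Il1f8 (3.90 ± 1.68) to Il1f6 (1.24 ± 1.77; SD, n = 4 for each), where neighbours overlapped except Il1f5 and Il1f8. Compared within each library, Il1f9 lay above Il1f8 in every NcstnΔKC library, while the order of the other neighbours there differed between libraries. In every normal library Il1rl2 lay above Il1f9, Il1f5 above Il1f8 and Il1f8 above Il1f6, while Il1f9 and Il1f5 changed places. Summed agonists per unit of receptor were 2.97 to 8.15 in NcstnΔKC libraries and 0.553 to 1.19 in normal libraries.

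Il1f8, Il1f9, Il1f6 and Il1f5 lie in that order on chromosome 2, ahead of Il1f10, whose product IL-38 is an IL-1 family member described as binding the IL-36 receptor, and of Il1rn, the IL-1 receptor antagonist. Between the start of Il1f8 and the end of Il1rn (24153161 to 24351494) 9 genes of the table lie, of which 7 were tested, 5 were higher and 1 was lower in NcstnΔKC skin, where 21.4% of all genes were higher and 22.7% lower; the 4 IL-36 ligands are among the 5. The lower one was Il1f10, with 7, 8, 3 and 4 counts in NcstnΔKC replicates 1 to 4, against 23, 34, 19 and 28 counts in normal replicates 1 to 4. Its groups did not overlap, and the log2 fold change was -3.33 ± 0.45 (SE, edgeR adjusted p = 0.000707) at these low counts. Il1rn had 63.4, 75.9, 50.1 and 63.4 CPM in NcstnΔKC libraries, against 49.8, 42.5, 62.7 and 43.0 CPM in normal libraries, and did not pass (0.35 ± 0.18, SE, adjusted p = 0.131), though it did without normal replicate 3 (0.55).

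On chromosome 1, Il1rl2 lies in a cluster of IL-1 family receptor genes from Il1r2 to Il18rap (40074079 to 40551705), in which 9 of 9 genes were tested, 7 were higher, Il1rl2 among them, and 0 were lower, against 21.4% and 22.7% of all genes. The 9 include predicted genes as well as receptor genes. Of the 7, Gm37347 lies inside Il1r2 and Gm38070 inside Il1r1. Their reads cannot be told apart from those of their hosts, so the 7 are not separate loci. Il1rl1, the receptor of IL-33, was at 3.17 ± 0.67 and Il18rap, the accessory chain of the IL-18 receptor, at 2.92 ± 0.35 on the log2 scale (SE, edgeR adjusted p = 0.0057 and 0.000436), with NcstnΔKC replicate 1 of Il1rl1 inside the normal range at 8.22 CPM and no call for Il1rl1 by limma-voom (2.80). Il1r1, the signalling receptor of IL-1, was at 1.17 ± 0.16 and the decoy receptor Il1r2 at 0.71 ± 0.23 (adjusted p = 0.000839 and 0.0325). The call of Il1r2 ended without NcstnΔKC replicate 1 (0.51) or 2 (0.74) and without normal replicate 2 (0.69) or 4 (0.64). Scaled by basal keratinocyte genes, Il1r1 was at 0.47 and Il1r2 at 0.087, and neither passed (adjusted p = 0.0913 and 0.802). Il18r1 did not pass (0.50 ± 0.27, adjusted p = 0.157), though it did without normal replicate 4 (0.79). Il1rl2 thus had the smallest change among the called genes of its cluster.

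**Figure D4:**
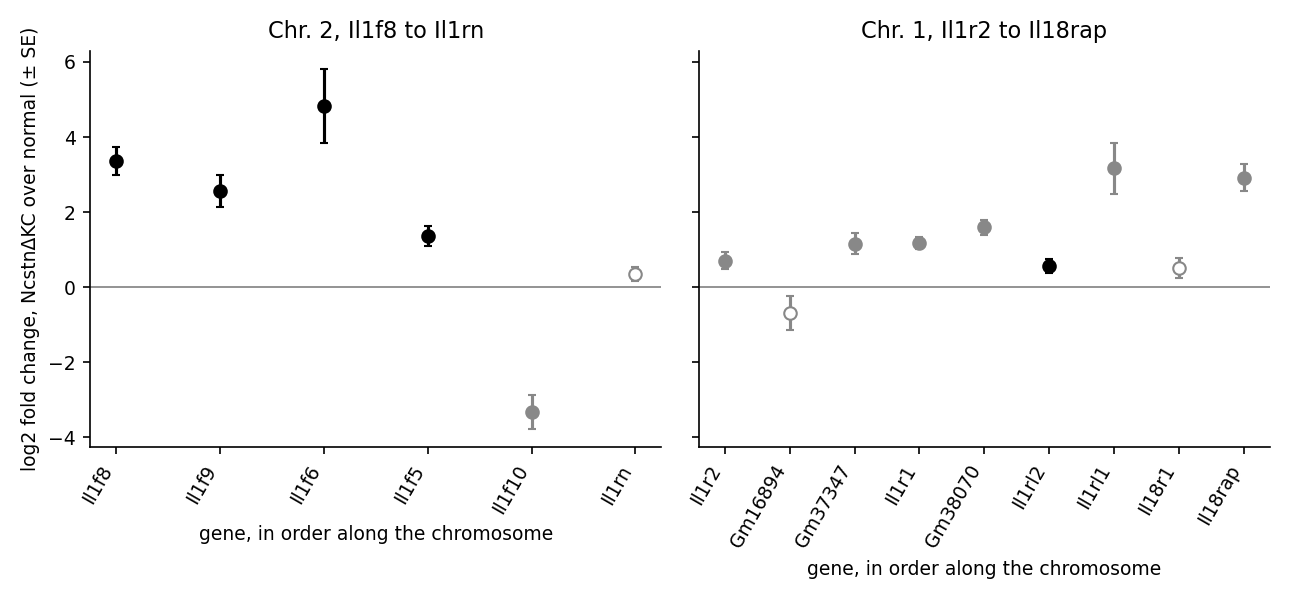
Log2 fold change, NcstnΔKC over normal, with its standard error, of the tested genes in the IL-36 ligand cluster (left) and the receptor cluster (right), in order along the chromosome; IL-36 genes are black, filled symbols passed an adjusted p of 0.05, and a gene with no counts in normal skin is left out. Il1f10 is the filled symbol below 0, at -3.33.

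The signalling arm of the receptor was described by 20 genes, from co-receptor to NF-κB, all of them tested. Of these 6 were higher and 1 was lower, that is 7 of 20, while 44.1% of all genes were called in either direction, with a median log2 fold change of 0.32 against -0.02 for all genes. The co-receptor Il1rap had 80.2, 93.0, 76.5 and 103 CPM in NcstnΔKC replicates 1 to 4, against 102, 56.0, 54.8 and 58.5 CPM in normal replicates 1 to 4. Normal replicate 1 lay within the NcstnΔKC range, and the gene did not pass (0.38 ± 0.22, SE, edgeR adjusted p = 0.184), whereas without that library it did (0.72, adjusted p = 0.00641).

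The adaptor Myd88 rose by 1.41 ± 0.20 on the log2 scale, to 32.4 to 58.8 CPM in NcstnΔKC libraries, against 16.5 to 20.3 CPM in normal libraries (SE, edgeR adjusted p = 0.000917). Nfkb1, an NF-κB subunit, rose by 1.18 ± 0.12 (adjusted p = 0.000244), with 289 to 306 CPM in NcstnΔKC libraries and 108 to 149 CPM in normal libraries. The kinase gene Chuk (0.86 ± 0.12), the adaptor Tollip (0.84 ± 0.18) and the ubiquitin ligase Traf6 (0.86 ± 0.26) were also higher, Traf6 at 0.51 without NcstnΔKC replicate 1. Tab2, a partner of the kinase TAK1, fell by 0.83 ± 0.15, to 127 to 189 CPM in NcstnΔKC libraries, against 226 to 284 CPM in normal libraries. Scaled by basal keratinocyte genes 2 of the 20 were higher and 1 was lower, while 4.68% of all genes were higher and 48.3% lower with that scaling, and the log2 values of Chuk, Tollip and Traf6 were 0.20, 0.21 and 0.24 and did not pass.

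IL-36 cytokines need trimming at their N-terminus for full activity, and the neutrophil proteases encoded by Elane, Prtn3 and Ctsg and the lysosomal protease encoded by Ctss have been reported to do this. Elane had 0 to 4 counts in NcstnΔKC libraries and 0 to 2 in normal libraries, Prtn3 0 to 18 and 1 to 3, and Ctsg 0 to 7 and 0 to 1, and none of these 3 passed the filter on low counts. Ctss had 49.7, 178, 200 and 244 CPM in NcstnΔKC replicates 1 to 4, against 33.9, 35.9, 37.4 and 69.0 CPM in normal replicates 1 to 4. NcstnΔKC replicate 1 overlapped the normal group, and the log2 fold change was 1.93 ± 0.45 (SE, edgeR adjusted p = 0.00878). Among factors known to raise IL-36 in keratinocytes, Il17a had 0 to 3 counts in NcstnΔKC and 0 to 2 in normal libraries, and Il22 had 0 to 2 and 0 to 1. Tnf did not pass at 0.28 ± 0.42 (adjusted p = 0.611; -0.076 without NcstnΔKC replicate 4), nor did Tlr3, a sensor of double-stranded RNA, at -0.32 ± 0.21 (adjusted p = 0.246).

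Of 17 genes that keratinocytes or dendritic cells are known to raise when given IL-36, 8 passed the filter on low counts and all 8 of those were called higher, while 9 were below it. Passing the filter needed only the group where a gene is high, so this count describes the list and no more. S100a8, an alarmin also made in bulk by neutrophils, had 40.4, 46.1, 78.2 and 108 CPM in NcstnΔKC replicates 1 to 4, against 0.304, 1.61, 0.141 and 1.95 CPM in normal replicates 1 to 4 (log2 fold change 6.09 ± 0.64, SE, edgeR adjusted p = 0.000243). Cxcl2, a chemokine for neutrophils, had 9.82, 4.37, 37.1 and 69.0 CPM in NcstnΔKC libraries, against 0.456, 0, 0.424 and 0.782 CPM in normal libraries. Both were highest in NcstnΔKC replicates 3 and 4, where the IL-36 ligands were lowest within that group.

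Ccl20, a chemokine made by keratinocytes, followed the other order, with 18.8, 17.8, 5.12 and 3.90 CPM in NcstnΔKC replicates 1 to 4, against 1.67, 1.01, 3.67 and 2.35 CPM in normal replicates 1 to 4. It was high in the same NcstnΔKC libraries as the ligands, and its log2 fold change was 2.35 ± 0.61 (SE, edgeR adjusted p = 0.0137). Lcn2, an antimicrobial protein, was at 3.56 ± 0.35 and Il6 at 4.48 ± 0.83 on the log2 scale (adjusted p = 0.00018 and 0.00308). Ccl4, below the filter, had 23, 8, 114 and 238 counts in NcstnΔKC libraries and 0 in every normal library, which is at least 60.1-fold higher, taking 3 counts for the whole normal group as its floor (counting error only). S100a8 and S100a9 also stand in the neutrophil list.

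Of 12 other IL-1 family genes, 9 were higher and 1, Il1f10, was lower, against 21.4% and 22.7% of all genes, with a median log2 fold change of 1.17 (-0.02 for all genes). Il1a, an alarmin stored in keratinocytes, was at 1.85 ± 0.31 and Il18, also made by keratinocytes, at 1.85 ± 0.30 on the log2 scale (SE, edgeR adjusted p = 0.00182 and 0.00173). Il1a had 14.3, 28.0, 26.1 and 35.1 CPM in NcstnΔKC replicates 1 to 4, against 5.77, 5.24, 9.60 and 7.95 CPM in normal replicates 1 to 4, and was lowest in NcstnΔKC replicate 1, unlike the IL-36 ligands. Il18 had 49.5, 52.8, 31.2 and 30.3 CPM in NcstnΔKC replicates 1 to 4, against 12.1, 6.65, 16.4 and 10.2 CPM in normal replicates 1 to 4, and so was higher in NcstnΔKC replicates 1 and 2, like the IL-36 ligands. Il1b, made largely by myeloid cells, had 26.5, 10.3, 73.5 and 117 CPM in NcstnΔKC libraries, against 11.8, 2.42, 2.12 and 5.08 CPM in normal libraries, and was highest in NcstnΔKC replicates 3 and 4. Scaled by basal keratinocyte genes, 5 of the 12 were higher and 1 was lower, against 4.68% and 48.3% of all genes.

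Markers of other cell types moved with the groups as well. The neutrophil list summed to 97.2, 169, 277 and 398 CPM in NcstnΔKC replicates 1 to 4, against 3.19, 9.68, 6.64 and 13.9 CPM in normal replicates 1 to 4. Of its 10 genes 8 passed the filter on low counts, most with close to 0 counts in normal skin, so no count of calls is read from it. Ly6g, a defining neutrophil marker, had 0 to 1.01 CPM in NcstnΔKC libraries and 0 CPM in normal libraries. Camp, below the filter like Ly6g, had 0.273 to 0.672 and 0 to 0.141 CPM. Other members of the list were well above such levels in NcstnΔKC skin. Cxcr2 had 10.2 to 42.7 CPM in NcstnΔKC and 0.304 to 0.806 CPM in normal libraries, and Mmp8 had 4.45 to 46.5 and 0 to 0.282 CPM. The summed IL-36 agonists were at 277, 216, 117 and 124 CPM in the same NcstnΔKC libraries and at 19.1, 10.7, 40.8 and 20.7 CPM in normal libraries, so the NcstnΔKC libraries with the most agonist transcripts had the least of the neutrophil list.

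The suprabasal keratinocyte list summed to 10931, 9128, 5267 and 5706 CPM in NcstnΔKC replicates 1 to 4, against 12940, 7730, 14497 and 10618 CPM in normal replicates 1 to 4. Of its 12 genes 2 were higher, 4 were lower and 6 did not pass, so its members went both ways. Within the NcstnΔKC group its sum was high in the same libraries as the agonists. Between the groups the makeup of the sum differed. Krt10 was at 537 to 1667 CPM in NcstnΔKC and 2660 to 6213 CPM in normal libraries, and Krt1 at 1708 to 3979 and 955 to 2460 CPM. A like sum in the 2 groups therefore need not mean a like suprabasal content. The counts of calls in this and the following lists stand against 21.4% of all genes higher and 22.7% lower. Of the basal keratinocyte list 10 of 12 genes were higher and 1 was lower. The macrophage list summed to 524 to 3641 CPM in NcstnΔKC libraries and 594 to 1000 CPM in normal libraries, with 5 of 10 higher. The Langerhans and dendritic cell list summed to 214 to 393 CPM in NcstnΔKC libraries and 474 to 764 CPM in normal libraries, with 9 of 10 tested and 7 of these lower. Of the T and NK cell list 3 of 9 tested genes were higher, with sums of 45.4 to 104 CPM in NcstnΔKC and 29.6 to 69.7 CPM in normal libraries. Of the mast cell list 4 of 6 tested genes were higher, with 95.9 to 507 CPM in NcstnΔKC and 72.4 to 144 CPM in normal libraries. Of the adipocyte list 5 of 6 were lower. All 6 skeletal muscle genes were lower, with sums of 340 to 4684 CPM in NcstnΔKC and 4671 to 49155 CPM in normal libraries, as were all 8 tested hair follicle and sebaceous genes, with 618 to 2289 CPM in NcstnΔKC and 4969 to 37891 CPM in normal libraries. The fibroblast list, with 1 of 6 lower, summed to 4282 to 12255 CPM in NcstnΔKC libraries, against 33418 and 34312 CPM in normal replicates 1 and 2 and 4437 and 5083 CPM in normal replicates 3 and 4. The low neutrophil sum of NcstnΔKC replicate 1 was not particular to that list. Within its group this library was also lowest for the macrophage (524 CPM), mast cell (95.9 CPM) and fibroblast (4282 CPM) lists. The same held for the Langerhans and dendritic cell (214 CPM) and basal keratinocyte (13262 CPM) lists. It was highest for the suprabasal, hair follicle and sebaceous, adipocyte and skeletal muscle lists. The part of these cell types in the IL-36 values was not tested.

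**Figure D5:**
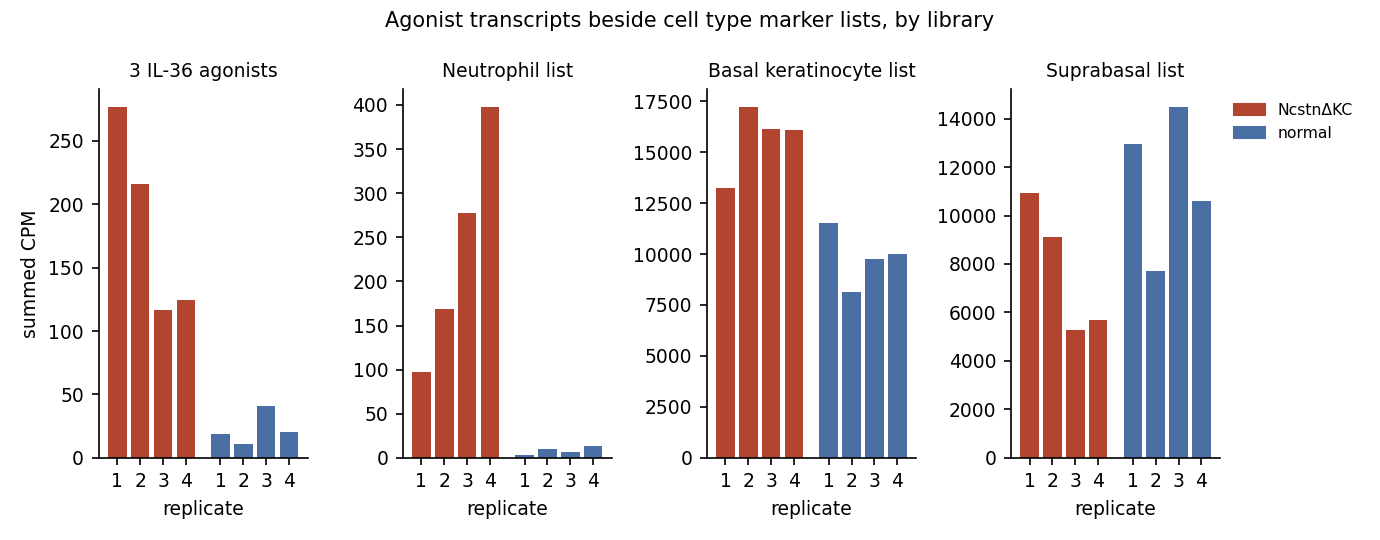
Summed CPM of the 3 IL-36 agonists and of the neutrophil, basal keratinocyte and suprabasal marker lists in each library, NcstnΔKC replicates left of normal replicates, with an axis of its own for each panel. Within the NcstnΔKC group the agonists are highest in replicate 1 (277 CPM), where the neutrophil list is lowest (97.2 CPM). The basal list is also lowest there (13262 CPM), and the suprabasal list is highest (10931 CPM).

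The genes with the pattern most like each IL-36 gene were found by the root-mean-square difference of centred log2(CPM + 1) over the 8 libraries, among 13580 genes. Il1f5 was closest to Nt5c3 (0.162), Tmem45a (0.191) and Abcc3 (0.192), and Il1rl2 to Atp8b1 (0.116), Lamtor5 (0.124) and Plek2 (0.125). Il1f6 had more distant neighbours, with Lce1g, a late cornified envelope gene, at 0.495, Lce3b, another of these, at 0.670 and the kallikrein gene Klk9 at 0.671. Il1f8 was closest to the glutaredoxin gene Glrx (0.302), the glucose transporter gene Slc5a1 (0.313) and the protease gene Prss27 (0.324), and Il1f9 to Kctd4 (0.356), Slc5a1 (0.364) and Npbwr1 (0.365). Among the 5 genes themselves the nearest pair was Il1f5 and Il1rl2 (0.492), followed by Il1f8 and Il1f9 (0.519), and the farthest was Il1f6 and Il1rl2 (1.88). Values were centred but not scaled, so a small difference also reflects a like size of change between the groups. Il1f5 and Il1rl2 changed least of the 5. Within NcstnΔKC replicates 1 to 4 they differed, with Il1f5 at 136, 136, 78.2 and 76.4 CPM and Il1rl2 at 185, 233, 193 and 182 CPM.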

How the data were processed

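RNA sequencing of 8 mouse skin samples was used as deposited by the authors, a table of raw whole-number counts per Ensembl gene and FPKM values for each library. TopHat2 2.0.9, TopHat and HTSeq stand in the submitters' processing notes, as do mm10 and hg38, with no role for any of them. Aligner settings, annotation release, strand setting and the handling of reads with several positions are not given in the sources used here. The coordinates of the 5 genes equal those of GENCODE M21 (mm10). Il1rl2 overlaps the annotated gene Gm17970, whose reads cannot be told apart from its own without strand.

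Low counts were removed by filterByExpr and TMM gave the library scaling for edgeR's two-sided, robust quasi-likelihood test, called at 0.05 after Benjamini-Hochberg adjustment (R 4.3.3, edgeR 4.0.16, limma 3.58.1, DESeq2 1.42.0). This left 15684 genes, with a biological coefficient of variation of 0.315. Intervals are 95% intervals of the fit. The total counts per library, 5835422 to 12893174, limit the precision of genes such as Il1f6 in normal skin, and floors cover counting error only. The fit was tested on simulated data, where it made 85 calls, 1 of them false. It recovered 4.48% of 1.5-fold, 23.9% of 2-fold and 98.5% of 4-fold changes. Few genes were changed in the simulation and all shared 1 dispersion, whereas 44.1% of genes were called in the data. The same adjusted p was thus a stricter cutoff in the simulation, and these shares do not carry over to the data. A gene that did not pass may still have changed by a small fold. Plots were drawn with matplotlib 3.10.9 in Python 3.11.15.

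Samples were grouped by title. Replicate numbers were not taken as pairs. The members, gene lists (17 lists with 161 entries), tests and rule for named genes were chosen with earlier results of these data known. Named were the 5 genes, up to 6 genes of lowest p in each pathway list, Il1rap, Il1f10, neighbours on the chromosome and the 3 genes of most similar pattern. Il1a and Il1b lie far from Il1rn on mouse chromosome 2, so the ligand interval was set, after the coordinates had been seen, from Il1f8 to Il1rn. Ccl20, Ccl4, Il1b and the named genes of the cell type lists fall outside that rule and were named after their values were seen. Of rows that share a symbol (Flg) the longest locus was used. Alternatives covered scaling, filter, test, unit, depth, covariates and libraries left out. The interaction with Xist and the exon lengths were added after seeing the data. Reads were not used here.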

Additional observations from a re-analysis of the deposited data

Results flagged for a closer look

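In 3 of 62 groups of 4 libraries examined for the 5 IL-36 genes and the named pathway genes, 1 library stood apart from the other 3 by a gap that, as a share of the group's range, passed Dixon's 95% critical value. Chance gives this in about 5% of groups. The gap of Traf6 among NcstnΔKC libraries was 0.866 of the range, with replicate 1 high at 192 CPM against 85.2 to 99.6 CPM in the other NcstnΔKC libraries. That of Il1rap among normal libraries was 0.921, with replicate 1 high at 102 CPM against 54.8 to 58.5 CPM in the other normal libraries. That of Ctss among normal libraries was 0.899, with replicate 4 high at 69.0 CPM against 33.9 to 37.4 CPM. None of the 5 IL-36 genes stood out in this way in either group.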

How the results depend on the processing

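The direction of all 5 IL-36 genes held under each of 26 other fits, except for Il1rl2 with scaling by basal keratinocyte genes (-0.086), and Il1f6, Il1f8 and Il1f9 kept their calls except in the 4 libraries without Xist. That fit, of 2 against 2, called 4 of all genes, none of the IL-36 genes (Il1f5 2.06, Il1f6 9.07, Il1f8 3.68, Il1f9 3.70, Il1rl2 0.79) and by edgeR 0 genes of the signalling, IL-36 responsive and other IL-1 family lists, of which 6, 8 and 6 had an unadjusted p under 0.05. Scaling by basal keratinocyte genes also ended the call of Il1f5 (0.71) and left 3 signalling and 6 other IL-1 family genes called. The receptor lost its call with upper-quartile scaling (0.51). Signalling genes called were 13 with total counts, 15 and 14 by limma-trend on FPKM with 1 and 0.1 added, and 11 in the libraries with Xist, against 7. Of called genes 48.6% were higher, against 70.5% with total counts, 8.84% with basal scaling and 71.6% and 71.4% with FPKM. Signs turned for Tlr3 with total counts (0.0068), for Il18r1 (-0.13), Il1rap (-0.27), Il1rn (-0.32) and Tnf (-0.40) with basal scaling, and for Tnf in the libraries without Xist (-0.75). The cause was not tested. Leaving out 1 library gave 0.48 to 0.73 for Il1rl2, 1.23 to 1.62 for Il1f5, 4.09 to 6.54 for Il1f6, 3.16 to 3.61 for Il1f8, 2.38 to 3.09 for Il1f9, -0.076 to 0.51 for Tnf, and 5619 to 7994 genes called. The log2 of mean antagonist per agonist in NcstnΔKC over that in normal skin was -1.90 with FPKM, -1.78 with counts and -1.92 per kilobase of exon. Same-numbered replicates deviated together with r from -0.04 to 0.22. These values do not settle whether numbers pair animals, and the labels do not say so, so numbers were not taken as pairs. With a replicate block edgeR called 5981 genes and the call of Il1rl2 ended (0.59, adjusted p = 0.0749). The other 4 IL-36 calls held with it. Depth limits Il1f6 in normal skin, with 0 to 24 counts.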

Other observations

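Predicted genes without a known product lie in both clusters. Gm37703 (chromosome 2, 24231868 to 24233651), between Il1f6 and Il1f5, had 36, 37, 19 and 20 counts in NcstnΔKC replicates 1 to 4 and 0 in every normal library. Taking 3 counts for the whole normal group as its floor, it was at least 17.6-fold higher (edgeR adjusted p = 0.0021), and like the ligands it was higher in NcstnΔKC replicates 1 and 2. On chromosome 1, Gm37347, inside the locus of Il1r2, was at 1.16 ± 0.28 and Gm38070, inside that of Il1r1, at 1.59 ± 0.20 on the log2 scale (SE, adjusted p = 0.0103 and 0.000511). Without a known strand setting their reads cannot be told apart from those of the host genes.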
